A study of Mus musculus with 4 samples.

Results

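Genes that mark mature fat cells were measured in explanted mouse ureters with and without *Pparg* in the epithelium. The set holds 10 genes, chosen by name: *Adipoq*, *Cfd*, *Retn* and *Lep*, which encode secreted proteins, *Plin1*, *Plin4*, *Cidec* and *Cidea*, whose products sit on lipid droplets, and *Fabp4* and *Pck1*, which act in fatty acid transport and glycerol supply. All 10 were found among the 29924 gene names of the array, with 12 of its 39429 probes, *Retn* and *Cidec* having 2 probes each. Ureters of NMRI mice were taken at P0 (the day of birth) and cultured for 8 days with 2 µM purmorphamine, a small molecule agonist of Smoothened that switches on hedgehog signaling, or with its solvent DMSO at 1:1000. *Pparg-cKO* ureters carried *Pax2-cre/+* and *Pparg (fl/fl)*, and control ureters came from *cre*-negative littermates that carried a floxed *Pparg* allele. Each of the 4 groups (genotype by treatment) had 2 pools of ureters, a male and a female one, and the number of ureters in a pool was not given in the sources used here. *Pax2-cre* recombines in the nephric duct, the ureteric epithelium and the collecting duct, and fat cells are not among the cells named for this driver. The *Pparg* signal on the array does not check the genotype, because the recombined allele still gives a transcript.

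White fat cells store triglyceride in a large droplet coated with perilipins and CIDE proteins and secrete adipokines such as adiponectin, adipsin, resistin and leptin. PPARG, a nuclear receptor that binds DNA together with RXR, is the main regulator of fat cell differentiation and maintenance, and many genes of this set are textbook targets of it in fat. The ureter is wrapped in an adventitia of loose connective tissue, next to which fat lies, so explants can carry fat cells in amounts that differ between pools. In bulk RNA, fewer cells of a type and less RNA per cell cannot be told apart.

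The probes that read the coding part of 3 members are shown, because 2 of these genes had a second probe to compare and the third is the classical fat cell hormone. All are in lower case, 5′ to 3′, on the strand of the transcript, with positions on mm9 from the file headers, and each has a reading frame without a stop codon.
*Adipoq*, chr16:23157576-23157635: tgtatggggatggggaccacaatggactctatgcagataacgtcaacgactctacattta
*Retn*, chr8:3657312-3657371: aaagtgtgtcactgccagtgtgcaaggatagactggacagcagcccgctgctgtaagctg
*Cidec*, chr6:113378116-113378175: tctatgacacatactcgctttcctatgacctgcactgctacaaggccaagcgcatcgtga

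Promoters were searched because the members moved together across the pools. RefSeq (GRCm38.p6) gave windows of 300 bases, from 250 before to 50 after the start, for 8 of the 10 genes, with 2 starts for *Cidec* and none for *Fabp4* and *Cidea*. The letters AGGTCA, the half-site to which PPARG and other nuclear receptors bind in pairs, were found on either strand in 0 of these 9 windows and in 16.3% of all 32851 promoters, which says only that these letters were not in the windows. The letters TTGCNNAA, a motif of C/EBP factors, which act beside PPARG in fat cells, were found on either strand in 3 of the 9 windows and in 10.8% of all promoters. *Plin1* held it at 187 and 58 bases before the start, *Cidec* at 198 bases and *Lep* at 55 bases. A match is a description and not a proven site. The 250 bases before the start are shown for *Plin1* and *Cidec*, both on the minus strand, with the TTGCNNAA matches in capitals.
*Plin1*, chr7:79732777-79733026: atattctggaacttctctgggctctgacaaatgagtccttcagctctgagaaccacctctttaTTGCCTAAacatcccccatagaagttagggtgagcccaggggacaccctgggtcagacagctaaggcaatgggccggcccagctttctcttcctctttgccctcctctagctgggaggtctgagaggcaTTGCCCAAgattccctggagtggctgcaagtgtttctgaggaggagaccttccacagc
*Cidec*, chr6:113434765-113435014: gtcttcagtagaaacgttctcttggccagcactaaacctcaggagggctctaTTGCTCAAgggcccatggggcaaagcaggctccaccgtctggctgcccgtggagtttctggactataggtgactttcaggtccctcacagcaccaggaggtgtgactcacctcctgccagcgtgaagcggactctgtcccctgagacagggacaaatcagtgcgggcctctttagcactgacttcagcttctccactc

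On each of the 4 two-color arrays, the DMSO pool and the purmorphamine pool of 1 genotype and sex were hybridized together, and the dyes were exchanged between the male and the female arrays. The share of spots well above background was 66.3% to 70.5% per channel, and 0 were saturated. All 12 urothelial and all 8 smooth muscle markers were well above background in all 8 pools, as were the 9 fat cell genes other than *Lep*. *Lep*, the satiety hormone leptin, was well above background in 1 pool, the female control pool with purmorphamine. Its log2 level lay between 5.97 and 6.72 in the 8 pools, and no fold change is given for it. Levels below are log2 of the normalized intensity of 1 pool, on which 1 unit is a 2-fold difference, and they compare pools within a gene but not genes with each other. Before the results by gene, 1 pool has to be named: the male *Pparg-cKO* pool with purmorphamine stood apart, with the lowest level of the 8 pools for 8 of the 9 genes. The mean of the 9 genes, each centred on its own mean over the pools, was -2.67 in this pool, against -0.75 to -0.02 in the 3 other *Pparg-cKO* pools and 0.82 to 1.22 in the control pools.

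**Figure D1:**
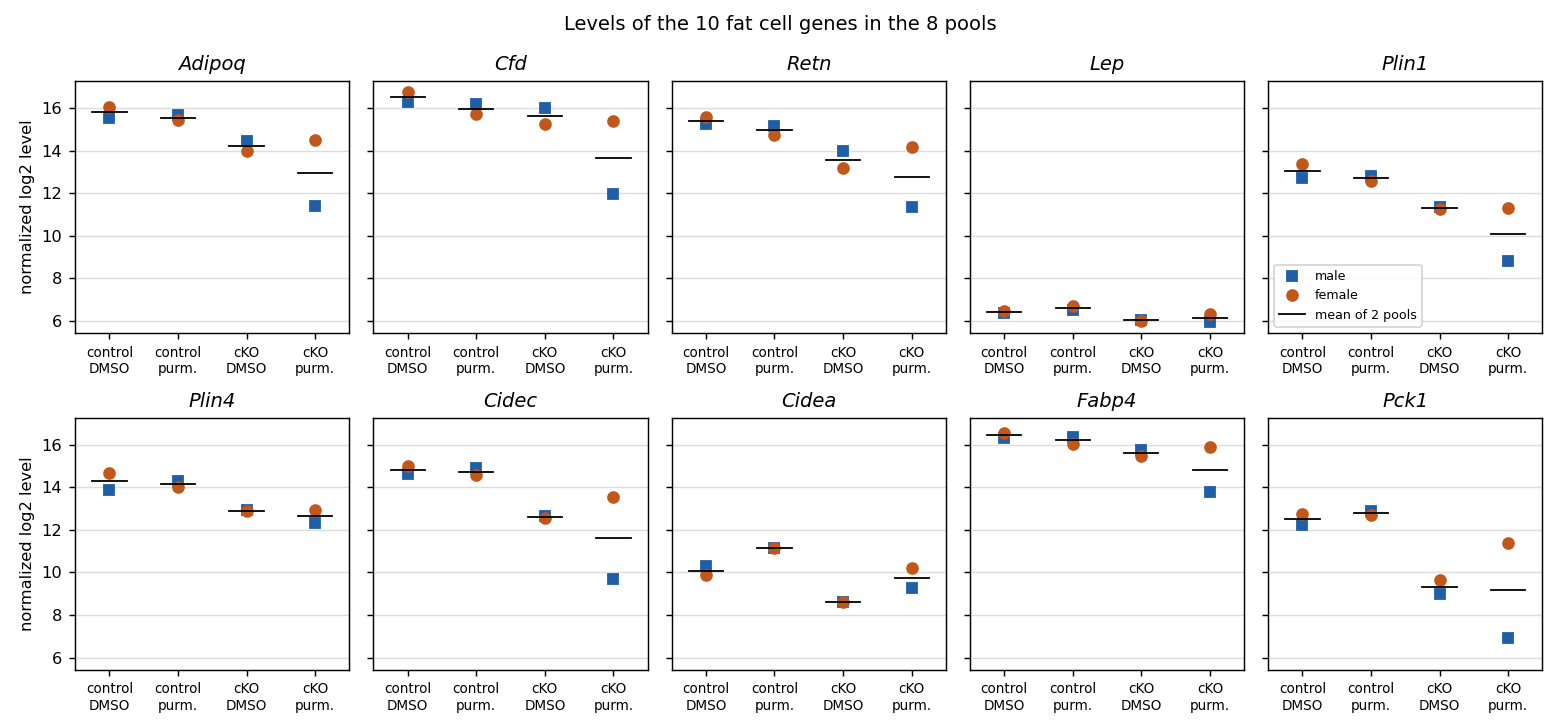
Normalized log2 level (vertical axis) of each of the 10 fat cell genes in the 4 groups (horizontal axis), with 1 square for the male and 1 circle for the female pool and a bar at their mean. For 9 genes both *Pparg-cKO* pools lay below both control pools of the same treatment, and the male *Pparg-cKO* pool with purmorphamine was far below the female one for 7 of them; *Lep* lay near background throughout.

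The secreted factors were lower in the *Pparg-cKO* pools. *Adipoq*, the insulin-sensitizing hormone adiponectin, was at 15.54 in the male and 16.05 in the female control pool with DMSO, and at 14.43 and 13.97 in the *Pparg-cKO* pools with DMSO. With purmorphamine it was at 15.65 and 15.44 in the male and female control pools, and at 11.42 and 14.51 in the *Pparg-cKO* pools. All 4 control pools were thus above all 4 *Pparg-cKO* pools, with 1 of the *Pparg-cKO* pools far below the other 3. *Cfd*, the complement protease adipsin, was at 16.29 and 16.73 in the male and female control pools with DMSO against 15.99 and 15.26 in the *Pparg-cKO* pools, and at 16.17 and 15.70 against 11.94 and 15.39 with purmorphamine. The genotypes did not overlap within a treatment, but the male *Pparg-cKO* pool with DMSO was above the female control pool with purmorphamine. *Retn*, resistin, was at 15.23 and 15.55 in the male and female control pools with DMSO against 13.96 and 13.19 in the *Pparg-cKO* pools, and at 15.15 and 14.74 against 11.35 and 14.17 with purmorphamine. Its coding probe, printed above, gave the same order of genotypes, with 13.68 and 13.05 against 15.33 and 15.64 with DMSO and 11.39 and 13.91 against 15.22 and 15.09 with purmorphamine.

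The lipid droplet genes followed the same order. *Plin1*, the perilipin that gates access of lipases to the droplet, was at 12.73 and 13.36 in the male and female control pools with DMSO and at 11.37 and 11.26 in the *Pparg-cKO* pools. With purmorphamine it was at 12.82 and 12.56 against 8.82 and 11.30. *Plin4*, a perilipin of nascent droplets, differed least between the *Pparg-cKO* pools: 12.92 and 12.89 with DMSO and 12.34 and 12.94 with purmorphamine, against 13.89 and 14.67 and then 14.28 and 14.00 in the control pools. All 4 control pools of both genes were above all 4 *Pparg-cKO* pools. *Cidec*, which fuses droplets in white fat cells, was at 14.63 and 14.98 in the control pools with DMSO against 12.66 and 12.54 in the *Pparg-cKO* pools, and at 14.89 and 14.57 against 9.67 and 13.55 with purmorphamine. Its coding probe gave the same order, with 13.91 and 14.39 against 11.35 and 11.53 with DMSO and 14.15 and 14.05 against 8.96 and 12.58 with purmorphamine. *Cidea*, a relative of *Cidec* best known from brown fat, behaved differently from the rest: it was at 10.28 and 9.90 in the control pools with DMSO and at 11.14 and 11.16 with purmorphamine, and at 8.63 and 8.61 and then 9.25 and 10.21 in the *Pparg-cKO* pools. For *Cidea* alone among the 9 genes, the lowest pools were the *Pparg-cKO* pools with DMSO.

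*Fabp4*, the fatty acid carrier of fat cells that is also made by capillary endothelial cells and macrophages, was at 16.31 and 16.57 in the male and female control pools with DMSO against 15.76 and 15.46 in the *Pparg-cKO* pools. With purmorphamine it was at 16.36 and 16.04 against 13.79 and 15.88. *Pck1*, the gluconeogenic enzyme that feeds glycerol synthesis in fat cells and is also made in liver and kidney, had the widest range of the set, 5.92 log2 units over the 8 pools. It was at 12.25 and 12.74 in the control pools with DMSO against 8.99 and 9.65 in the *Pparg-cKO* pools, and at 12.87 and 12.69 against 6.94 and 11.38 with purmorphamine. For both genes all 4 control pools were above all 4 *Pparg-cKO* pools.

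The genotypes were first compared with DMSO, which asks what differed without *Pparg* when no hedgehog agonist was added. All 9 genes were lower in *Pparg-cKO* ureters, with a median log2 fold change of -1.60 and a range from -3.17 (*Pck1*) to -0.83 (*Fabp4*), while the median over all 20229 genes tested was 0.0042. Both *Pparg-cKO* pools were below both control pools for 9 of 9 genes, as for 21.6% of all genes tested. By limma with Benjamini-Hochberg adjustment over all probes tested, 0 of the 9 passed an adjusted p of 0.05, as 3.68% of all genes tested did, and 4 of the 9 were lower at an unadjusted p under 0.05 (7.76% of all genes). Closest to the threshold were *Cidea*, with a log2 fold change of -1.47 ± 0.29 (SE) and an adjusted p of 0.0501, and *Plin4*, with -1.37 ± 0.30 and 0.0627. *Pck1*, with the largest difference, had -3.17 ± 1.22 and an adjusted p of 0.283, and *Cfd* had -0.89 ± 0.99 and 0.783. By the rule of the study's methods, which asks that the male and the female pair both differ by 1.5-fold or more the same way and carries no test, 8 of the 9 genes were lower, all but *Cfd*, against 2.92% of the 15423 genes above its intensity threshold. The p-values measure the spread between pools, here 2 per group, estimated over all 4 groups together. The pool that stood apart therefore enters the standard errors with DMSO too. For *Cidec* the standard deviation of the 2 pools was 0.245 in control and 0.0876 in *Pparg-cKO* ureters with DMSO. It was 2.74 in *Pparg-cKO* ureters with purmorphamine. Genotype and array cannot be told apart.

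With purmorphamine in both genotypes, the 9 genes were again all lower in *Pparg-cKO* ureters. The median log2 fold change was -2.27, with a range from -3.62 (*Pck1*) to -1.37 (*Fabp4*), against a median of -0.0042 over all genes tested. Both *Pparg-cKO* pools were below both control pools for 9 of 9 genes, as for 24.6% of all genes. By limma 0 of the 9 passed the adjusted threshold (2.87% of all genes did) and 7 were lower at an unadjusted p under 0.05 (8.92% of all genes). *Plin4* came closest, with -1.50 ± 0.30 and an adjusted p of 0.054, followed by *Cidea* with -1.41 ± 0.29 and 0.0634 and *Plin1* with -2.63 ± 0.71 and 0.126. By the rule of the methods 7 of the 9 were lower, all but *Cfd* and *Fabp4*, against 3.23% of 15312 genes. The size of this difference depended on the pool that stood apart. In the male pools the median difference over the 9 genes was -4.00 and in the female pools -0.94, and *Fabp4* differed by -2.57 between the male pools and by -0.17 between the female pools. With DMSO the 2 sexes were closer, with medians of -1.27 in male and -2.08 in female pools, and all 9 genes were lower in each of the 4 pairs. Without the arrays of the 2 female or of the 2 male pools there is 1 pool left in a group, so these values by sex carry no test.

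**Figure D2:**
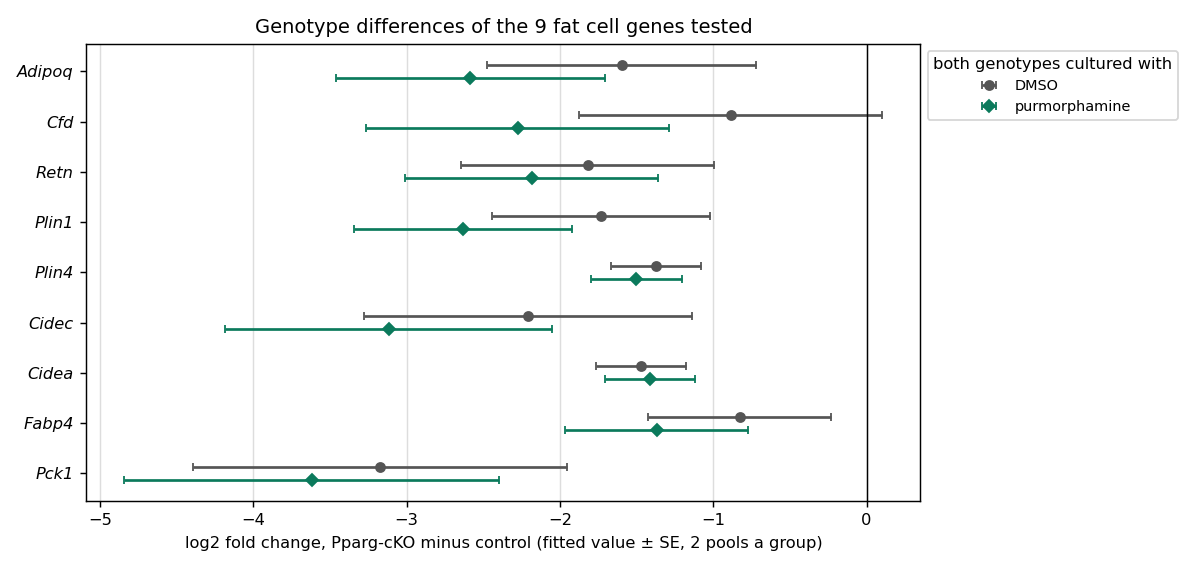
Fitted log2 fold change of *Pparg-cKO* over control ureters (horizontal axis) for the 9 fat cell genes tested (vertical axis), with circles for DMSO, diamonds for purmorphamine and bars for the standard error. All 18 values were below 0; *Plin4* and *Cidea* had the shortest bars, and *Pck1* and *Cidec* the lowest values and the longest bars.

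Over both treatments, a comparison added after the values had been seen, all 4 *Pparg-cKO* pools were below all 4 control pools for 7 of the 9 genes, as for 7.74% of all genes tested. The exceptions were *Cfd* and *Cidea*. Without the male *Pparg-cKO* pool with purmorphamine the count was again 7 of 9, against 8.84% of all genes. In the limma fit of this average, *Cidea* fell by 1.44 on the log2 scale (SE 0.21, adjusted p = 0.01) and *Plin4* fell by 1.44 (SE 0.22, adjusted p = 0.0103), lower in 8 of 8 comparisons of a *Pparg-cKO* with a control pool of the same treatment for each. The other 7 genes did not pass, with *Plin1* at an adjusted p of 0.0506 and *Cfd* at 0.26. Thus 2 of 9 genes passed, against 8.74% of all genes tested, and 8 of 9 were lower at an unadjusted p under 0.05, against 11.8%. The number of genes passing depended on which array was left out. Such a fit leaves 1 array of a genotype, its spread assumed to be that of the others, so no count is given for it.

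Purmorphamine was then compared with DMSO within each array, which asks whether hedgehog stimulation moved the fat cell genes. The fat cell genes had no common direction. In control ureters 7 of the 9 were lower and 2 higher with purmorphamine, with a median log2 ratio of -0.24, and 0 passed limma's adjusted threshold (1.20% of all genes did). At an unadjusted p under 0.05 there was 1 of the 9, *Cidea* (19.6% of all genes), and by the rule of the methods also 1, *Cidea*, which was higher (6.45% of 15321 genes). On the male control array the median was 0.11 and on the female control array -0.61.

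In *Pparg-cKO* ureters the 2 arrays disagreed. On the male array 8 of the 9 genes were lower with purmorphamine, with a median log2 ratio of -2.55 and values of -4.04 for *Cfd*, -3.02 for *Adipoq* and -2.99 for *Cidec*. On the female array 0 of the 9 were lower, with a median of 0.54 and values of 1.73 for *Pck1*, 1.01 for *Cidec* and 0.98 for *Retn*. On the male array 7 of the 9 genes were at least 2-fold lower with purmorphamine, as were 2.18% of all genes tested. In the fit of both arrays 8 genes had negative and 1 a positive log2 fold change, with a median of -0.81, and 0 passed limma's adjusted threshold (4.65% of all genes did). At an unadjusted p under 0.05 there was again only *Cidea*, 1 of 9 (22.2% of all genes), as by the rule of the methods (8.67% of 15402 genes). The fold changes of the other 8 genes turned positive without the male *Pparg-cKO* array, so they give no direction for the effect of purmorphamine in *Pparg-cKO* ureters.

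**Figure D3:**
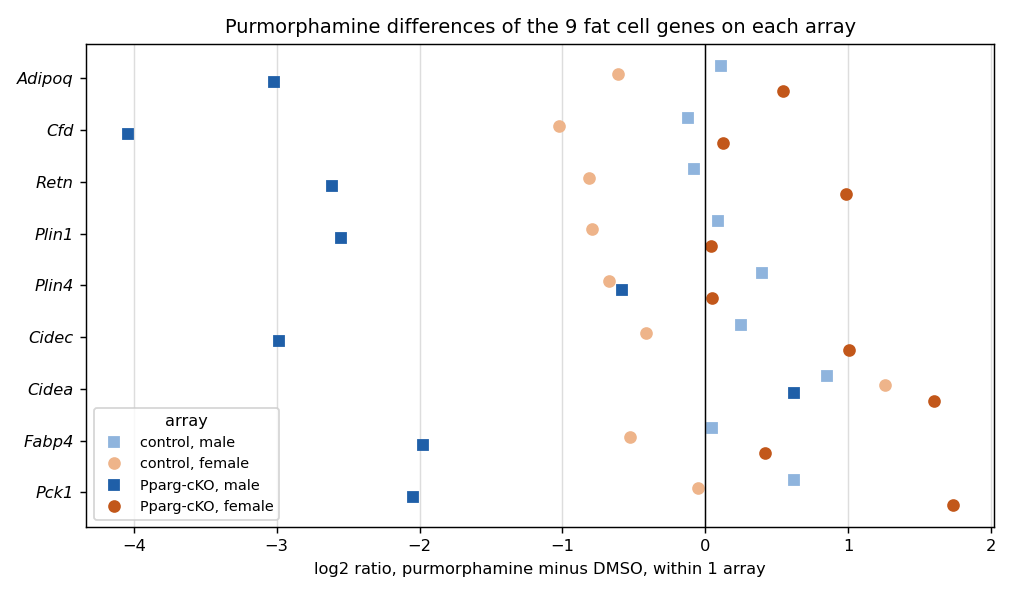
Log2 ratio of the purmorphamine over the DMSO pool on each of the 4 arrays (horizontal axis) for the 9 fat cell genes tested (vertical axis), with pale symbols for control, dark symbols for *Pparg-cKO*, squares for male and circles for female arrays. The male *Pparg-cKO* array held the lowest value for 8 of the 9 genes, all but *Plin4*, where the female control array was lower, and *Cidea* alone was above 0 on all 4 arrays.

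*Cidea* was the exception to this pattern. Its log2 ratio of purmorphamine over DMSO was 0.86 (male) and 1.26 (female) on the control arrays, and 0.62 (male) and 1.61 (female) on the *Pparg-cKO* arrays. It was the 1 member of 9 that was above 0 on all 4 arrays, which 21.5% of all genes tested were. The fitted values were 1.06 ± 0.26 (SE, adjusted p = 0.135) in control and 1.11 ± 0.26 (adjusted p = 0.0879) in *Pparg-cKO* ureters, and with the dye as a term in the fit the second had an adjusted p of 0.0434. Averaged over both genotypes, a comparison added after the values had been seen, *Cidea* rose by 1.08 (SE 0.18, limma adjusted p = 0.0267), a 2.12-fold rise, and it was 1 of 9 members to pass, against 13.5% of all genes tested. The number of members passing in this average depended on which array was left out, and such fits leave 1 array of a genotype. For comparison, the 12 urothelial markers had median log2 ratios of purmorphamine over DMSO of 0.47 in control and 0.48 in *Pparg-cKO* ureters, with 4 negative in each. Their median genotype differences were -0.38 with DMSO and -0.44 with purmorphamine, with 9 and 11 of the 12 negative. Purmorphamine ratios of other lists had medians (control, *Pparg-cKO*) of 0.71 and 0.81 for smooth muscle markers and 1.03 and 1.48 for hedgehog response genes. Medians were 0.52 and 0.49 for endothelial, 0.005 and 0.27 for precursor and -0.01 and -0.03 for brown fat genes. They were -0.19 and -0.35 for other white fat, -0.87 and -0.77 for macrophage and -0.52 and -0.38 for proximal tubule genes. Which cells made *Cidea* was not tested.

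The difference of the purmorphamine effects between the genotypes was tested directly. It was negative for 8 of the 9 genes, with a median of -0.54 and a range from -1.39 (*Cfd*) to 0.06 (*Cidea*). By limma 0 of the 9 passed the adjusted threshold, as did 0% of all genes, and 0 of the 9 had an unadjusted p under 0.05 (3.31% of all genes). Without the male *Pparg-cKO* array, which leaves 1 array of this genotype, the difference was positive for 9 of the 9 genes. It was up to 1.44 for *Pck1* and 1.43 for *Retn*.

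Female and male pools were compared across the 4 groups, since fat carried along with the ureters could differ between pools. All 9 genes were higher in female pools, by a median of 0.67 on the log2 scale and between 0.14 (*Cidea*) and 1.35 (*Pck1*). By limma 0 of the 9 passed the adjusted threshold (0.0297% of all genes did) and 1, *Plin4*, was higher at an unadjusted p under 0.05 (9.50% of all genes). The direction did not hold within each group. In control ureters with purmorphamine 8 of the 9 genes were higher in the male pool and in *Pparg-cKO* ureters with DMSO all but *Pck1* were, while in control ureters with DMSO 8 of the 9 and in *Pparg-cKO* ureters with purmorphamine 9 of the 9 were higher in the female pool. Sex, replicate number and dye orientation are the same split here and cannot be told apart.

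Other genes of fat cells were examined from lists. Of 24 further white fat cell genes (lipases, lipid synthesis, transporters and fat cell receptors), all 24 were lower in *Pparg-cKO* ureters with DMSO. Their median log2 fold change was -1.27, against 0.0042 over all genes tested. Past limma's adjusted threshold were 9 of them, against 3.68% of all genes. They included *Cebpa*, a regulator of fat cell differentiation, at -1.0 (adjusted p = 0.0135), the water and glycerol channel *Aqp7* at -1.60 (0.0295), the lipase inhibitor *G0s2* at -1.32 (0.027) and the hormone-sensitive lipase *Lipe* at -1.71 (0.0393). With purmorphamine 23 of the 24 were lower and 6 of these passed, against 2.87% of all genes. The 6 again held *Cebpa* (-1.15, adjusted p = 0.0144), *Aqp7* (-1.71, 0.0299), *G0s2* (-1.46, 0.026) and *Lipe* (-1.68, 0.048). The other 5 with DMSO were *Agpat2*, *Dgat2*, *Fasn*, *Pnpla2* and *Rbp4*, and the other 2 with purmorphamine *Agpat2* and *Dgat2*. *Cebpa* was at 12.38 and 12.31 in the male and female control pools with DMSO and at 11.31 and 11.38 in the *Pparg-cKO* pools, and at 12.29 and 12.30 against 10.95 and 11.35 with purmorphamine. All 4 control pools of *Cebpa* were above all 4 *Pparg-cKO* pools, as for most members, but the male *Pparg-cKO* pool with purmorphamine lay close to the female one. The exception with purmorphamine was *Rbp4*, the retinol carrier, at 0.15 for *Pparg-cKO* over control ureters (adjusted p = 0.619). It rose by 1.70 on the log2 scale with purmorphamine over DMSO in *Pparg-cKO* ureters (adjusted p = 0.0143), where 3 of the 24 genes had positive values.

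Brown fat and precursor genes did not share the pattern as lists, though single brown fat genes did. Of 12 brown fat genes tested, 0 passed with DMSO (3.68% of all genes did) and 1 with purmorphamine (2.87% of all genes). This was *Cpt1b*, which was lower (-0.89, adjusted p = 0.0274). The medians of the list were -0.10 and -0.19. *Ucp1*, the defining uncoupling protein, was well above background in 4 of the 8 pools, at 8.08 in the male control pool with DMSO and at 6.27 to 6.81 in the others. *Zic1* (6.85 to 7.08) and *Otop1* (6.57 to 6.98) were also dim, so a fall could be missed for these genes. *Cox8b* had the largest difference of this list, -2.30 with DMSO (limma adjusted p = 0.121). It was at 14.41 to 14.75 in the control pools. In the male and female *Pparg-cKO* pools it was at 12.58 and 12.04 with DMSO and at 11.26 and 13.39 with purmorphamine. Of 14 genes of fat cell precursors and connective tissue, 1 was higher with DMSO, *Dpp4* (2.49, adjusted p = 0.0219), and 0 passed with purmorphamine. The same shares of all genes apply, and the medians were -0.18 and -0.02. With each treatment 9 of the 14 were negative, the lowest at -0.94 with DMSO and -1.10 with purmorphamine. By limma 3 of the 14 were lower at an unadjusted p under 0.05 with DMSO (7.76% of all genes) and 0 with purmorphamine (8.92%). *Dlk1*, which is lost as precursors mature, was at 12.45 in the male and 15.58 in the female *Pparg-cKO* pool with purmorphamine.

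**Figure D4:**
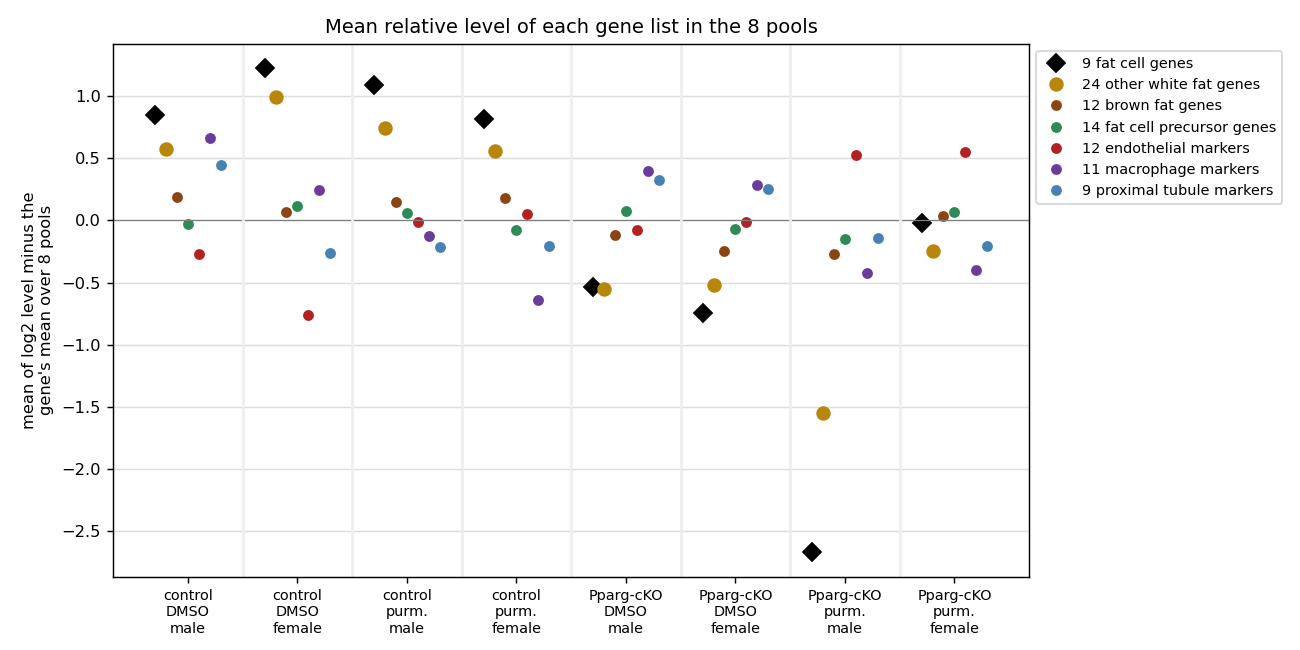
Mean over each gene list of the log2 level minus the gene's own mean over the 8 pools (vertical axis) in each pool (horizontal axis). The 9 fat cell genes (black diamonds) ranged from 1.22 to -2.67 and the 24 other white fat genes from 0.99 to -1.55, while the 5 other lists drawn stayed between 0.66 and -0.76.

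Markers of other cell types that make some of these genes were measured beside them. All 12 capillary endothelial markers were well above background in all 8 pools, and their summed linear level was 20220 to 42290 in control and 37710 to 61520 in *Pparg-cKO* pools. Their median log2 fold change for *Pparg-cKO* over control ureters was 0.60 with DMSO and 0.53 with purmorphamine, with 2 and 1 of the 12 negative. Of 12 macrophage markers 10 to 12 were well above background, with summed levels of 173000 to 381400 in control and 205600 to 357500 in *Pparg-cKO* pools and genotype medians of -0.01 and 0.01. All 11 tested had negative log2 ratios of purmorphamine over DMSO in both genotypes, with medians of -0.87 and -0.77. Past limma's threshold were 5 in each, against 1.20% of all genes in control and 4.65% in *Pparg-cKO* ureters. Proximal tubule markers bear on *Pck1*. Of the 14, 13 were well above background in the male control pool with DMSO and 4 to 9 in the others. *Slc22a8* was not well above background in any pool. Summed levels were 12170 to 18640 in control and 11320 to 23160 in *Pparg-cKO* pools. Most of each sum was the signal of *Aqp1*, at log2 levels of 13.03 to 14.22 the brightest of the list. *Pdzk1* of this list was higher and *Fbp1* lower in *Pparg-cKO* ureters, 1 gene each way past the threshold. In the male *Pparg-cKO* pool with purmorphamine the endothelial, macrophage and precursor lists had mean relative levels of 0.53, -0.42 and -0.15, close to the 0.55, -0.40 and 0.07 of the female pool, where the fat cell genes were at -2.67 and -0.02. The other white fat list was at -1.55 in the male and -0.24 in the female pool, and the brown fat list at -0.27 and 0.04. The part of the other cell types in the results was not tested.

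The members resembled each other to different degrees over the 8 pools. Pearson's r of a gene with the mean of the other 8 was 0.998 for *Cidec*, 0.987 for *Adipoq*, 0.985 for *Retn*, 0.981 for *Plin1*, 0.967 for *Fabp4*, 0.96 for *Pck1*, 0.899 for *Plin4*, 0.887 for *Cfd* and 0.606 for *Cidea*. Among 811 genes outside the set with a range of at least 2 log2 units, the 10 most like the mean of the members were *Gpd1* (r = 0.997), *Ces1f* (0.993), *Ces1d* (0.99), *Acvr1c* (0.988), *A530016L24Rik* and *Adig* (both 0.987), *B3galt2* and *Tshr* (both 0.986), and *Thrsp* and *Ephx2* (both 0.983). Of these, *Gpd1*, *Acvr1c*, *Adig* and *Thrsp* were on the list of other white fat cell genes. *Gpd1*, which makes the glycerol phosphate backbone of triglycerides, was at 15.36 and 15.94 in the male and female control pools with DMSO, at 15.56 and 15.27 with purmorphamine, at 13.79 and 13.62 in the *Pparg-cKO* pools with DMSO and at 11.13 and 14.15 with purmorphamine. The pools share arrays in pairs, and 1 low pool weighs heavily in each r, so these values are descriptions.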

How the data were processed

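RNA of 8 pools was measured on 4 two-color arrays with 4 spots per probe. Per the file headers, spots were read as mean and local background intensity in each dye, with no normalization, and the processed intensity was background-subtracted and dye-normalized by the scanner software. The deposited log10 ratio served only to check the dyes. The score in the deposited series table gives purmorphamine against DMSO as a fold change with a sign, on a scaling not stated.

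Mean intensities were corrected with normexp (offset 50), normalized by loess within and by Aquantile between arrays, and outlier spots were left out. The brightest probe stood for a gene. A probe was tested if it was well above background in both pools of a group: 27064 probes, 20229 genes. Limma (3.58.1, R 4.3.3) was fitted to separate channels for genotypes (intraspot correlation 0.058) and to log ratios for purmorphamine, with Benjamini-Hochberg adjustment over all probes tested and a threshold of 0.05. For the rule of the methods, processed signals were scaled to a 75th percentile of 1500, with a floor of 15 and an intensity above 100. Scripts were tested on simulated data.

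The members, lists and named genes (all 10 members; called genes or the largest changes of each list; the 10 most alike genes) were chosen with earlier results of these data known. Gene names are those of the files.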

Additional observations from a re-analysis of the deposited data

How the results depend on the processing

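In the genotype comparisons all 9 genes were lower in every alternative fit. The count of genes past the threshold was 0 with the processed signals, an offset of 16, no filter on dim probes and the replicate block, in which the replicate number is a term (0 with DMSO and 0 with purmorphamine). In these fits 292 to 724 of all genes passed with DMSO and 130 to 593 with purmorphamine. It was 2 in each without normalization between arrays, where 1013 (DMSO) and 889 (purmorphamine) of all genes passed. By the rule of the methods it was 8 and 7, with the shares of all genes given above. Leaving out 1 array gave 0 to 5 with DMSO and 0 to 8 with purmorphamine. The 5 came without the male and 3 without the female *Pparg-cKO* array, and the 8 without the female one. For purmorphamine against DMSO the counts were 1 in control and 1 in *Pparg-cKO* ureters by the rule of the methods. With the replicate block there was 1 in *Pparg-cKO* ureters, *Cidea*, where 896 of all genes passed. These counts too depended on the array left out. No other call changed with the block. Same-numbered pools share sex but not animals, with deviations correlated at -0.149 (DMSO) and 0.47 (purmorphamine) over genes; a crossed pairing, added after seeing the data, gave 0 with DMSO. For the averages over treatments or genotypes the counts also depended on the array left out.

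Directions turned only when 1 array was left out; the range then was, in control ureters, -0.52 to 0.050 for *Fabp4*, -0.61 to 0.11 for *Adipoq*, -0.68 to 0.40 for *Plin4*, -0.41 to 0.25 for *Cidec*, -0.80 to 0.088 for *Plin1* and -0.047 to 0.62 for *Pck1*. In *Pparg-cKO* ureters it was -1.98 to 0.42 for *Fabp4*, -4.04 to 0.12 for *Cfd*, -3.02 to 0.54 for *Adipoq*, -2.61 to 0.98 for *Retn*, -0.58 to 0.047 for *Plin4*, -2.99 to 1.01 for *Cidec*, -2.55 to 0.044 for *Plin1* and -2.05 to 1.73 for *Pck1*. The difference between genotypes ranged from -1.74 to 0.66 for *Fabp4*, -3.47 to 0.69 for *Cfd*, -2.77 to 0.79 for *Adipoq*, -2.16 to 1.43 for *Retn*, -0.67 to 0.41 for *Plin4*, -2.91 to 1.09 for *Cidec*, -2.20 to 0.40 for *Plin1*, -2.34 to 1.44 for *Pck1* and -0.44 to 0.55 for *Cidea*. The cause was not tested. With 3 arrays the intraspot correlation of all 4 was used, and a lone pool was assumed to vary like the others. With 2 pools per group, differences smaller than the spread between pools could not be detected; *Lep* was limited by background.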
